A study of Homo sapiens with 8 samples.

Results

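Mitotic and G2/M genes are a set of 42 named genes that cells use to enter, carry out and leave mitosis. The members were taken by symbol, as the probe sets that the platform annotation assigned to exactly 1 member or to an older alias of it. All 42 were found, with 79 of the 54675 probe sets, among 19775 genes named on the array. Each gene was represented by its brightest probe set, and all 42 of these passed the filter on dim signal, a mean above 7.43 on the log2 scale, that left 13298 genes for testing. Counts of members are given beside the same count over all tested genes.

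The series holds 8 Affymetrix arrays of HepG2, a human hepatocellular carcinoma cell line, and asks what quercetin, a plant flavonol, does to its gene expression. Every culture was starved of serum and then kept in serum-free medium. The control groups received no quercetin and were taken at 2 h, 4 h, 12 h and 24 h, and the groups with 3 µM quercetin were taken at the same 4 times. Each of these 8 groups is 1 array, so no group has a spread of its own, and p-values measure how the arrays depart from an additive pattern of time and treatment, not the spread between cultures treated alike. No array from before the change of medium or from cells in serum was used here.

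Mitosis begins when cyclins A and B activate the kinase CDK1, which is held back until the CDC25 phosphatases remove its inhibitory phosphates. Kinesins and kinetochore proteins then attach chromosomes to the spindle, a checkpoint delays the anaphase-promoting complex (APC/C) until attachment is complete, and APC/C ends mitosis by marking securin and the cyclins for destruction. Most of these genes are transcribed late in the cell cycle, and in resting cells many are silenced by the DREAM complex, whose MuvB core recognises a short promoter element, the cell cycle genes homology region (CHR), often placed near a start site and downstream of CCAAT boxes.

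Promoters of the members were read from RefSeq (GRCh38.p14), which gave 46 windows of 300 bases, from 250 before to 50 after an annotated start, for 36 of the 42 members. The CHR-type hexamer TTTGAA or its reverse complement TTCAAA was in 30 of the 46 windows (65.2%), against 15.2% of all 35116 promoters of the same length and 10.6% of the 15296 promoters of tested genes. Within 50 bases of the start on either side it was in 52.2% of the member windows, 4.62% of all promoters and 3.02% of those of tested genes. CCAAT or its reverse complement ATTGG was in 73.9% of member windows, 34.6% of all promoters and 34.3% of those of tested genes. Both motifs were in 52.2%, 5.9% and 4.24%. A related hexamer, TTCGAA, which reads the same on both strands, was in 6.52% of member windows, those of BUB1, CDC25B and NDC80, and in 1.45% of all promoters. A match describes letters and is not a shown binding site.

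Windows of 8 members are printed to show how the motifs lie together, each as the 150 bases before the start, 5′ to 3′ along the gene, with matches to TTTGAA and CCAAT on either strand in capitals. The 6 that hold the hexamer are CCNB2 at chr15:59104996-59105145 (+ strand), BUB1B at chr15:40160919-40161068 (+ strand), CDCA8 at chr1:37692366-37692515 (+ strand), HMMR at chr5:163460482-163460631 (+ strand), KIF11 at chr10:92592980-92593129 (+ strand) and ASPM at chr1:197146670-197146819 (- strand). CCNB1 at chr5:69167000-69167149 (+ strand) holds only CCAAT, and CENPE at chr4:103198344-103198493 (- strand) holds neither.
CCNB2: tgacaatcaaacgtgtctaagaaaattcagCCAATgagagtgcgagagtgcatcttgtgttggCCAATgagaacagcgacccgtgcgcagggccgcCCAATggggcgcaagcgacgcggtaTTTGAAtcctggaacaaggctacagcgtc
BUB1B: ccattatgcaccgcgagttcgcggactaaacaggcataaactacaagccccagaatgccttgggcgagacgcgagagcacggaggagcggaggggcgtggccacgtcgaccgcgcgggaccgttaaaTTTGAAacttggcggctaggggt
CDCA8: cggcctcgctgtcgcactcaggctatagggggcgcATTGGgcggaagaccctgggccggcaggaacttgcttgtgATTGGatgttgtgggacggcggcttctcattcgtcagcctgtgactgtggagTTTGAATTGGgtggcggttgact
HMMR: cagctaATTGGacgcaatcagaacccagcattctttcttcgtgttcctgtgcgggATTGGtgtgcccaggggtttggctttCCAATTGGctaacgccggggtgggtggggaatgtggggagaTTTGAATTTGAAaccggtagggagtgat
KIF11: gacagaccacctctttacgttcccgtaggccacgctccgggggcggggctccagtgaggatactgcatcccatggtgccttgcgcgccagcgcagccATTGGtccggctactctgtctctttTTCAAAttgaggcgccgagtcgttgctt
ASPM: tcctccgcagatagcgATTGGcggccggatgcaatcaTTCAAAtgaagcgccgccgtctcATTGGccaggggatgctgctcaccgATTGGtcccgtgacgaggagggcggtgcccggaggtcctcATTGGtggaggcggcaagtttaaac
CCNB1: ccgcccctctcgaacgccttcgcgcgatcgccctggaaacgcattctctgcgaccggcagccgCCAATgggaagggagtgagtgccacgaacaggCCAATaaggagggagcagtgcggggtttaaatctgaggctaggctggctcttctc
CENPE: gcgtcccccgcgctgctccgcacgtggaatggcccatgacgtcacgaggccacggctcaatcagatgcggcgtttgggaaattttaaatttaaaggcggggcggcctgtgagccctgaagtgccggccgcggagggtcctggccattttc

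Counting the base before the start as -1, the hexamer began at -29 in CCNB2, -28 in KIF11 and -23 in both BUB1B and CDCA8, and HMMR held adjoining copies, from -28 and -22. ASPM had it farther out, at -113, on the opposite strand. In CCNB2 the CCAAT matches at -120, -87 and -54 lay upstream of the hexamer, and in CDCA8 a match on the opposite strand shared its first base with the end of the hexamer. BUB1B held no CCAAT in the window. In the histogram of motif positions, 17 of the 42 hexamer matches in the 46 windows began in the 50 bases before the start, 14 lay farther upstream and 11 lay after the start. Of 70 CCAAT matches, 59 lay more than 50 bases upstream, 10 nearer and 1 after the start.

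**Figure D1:**
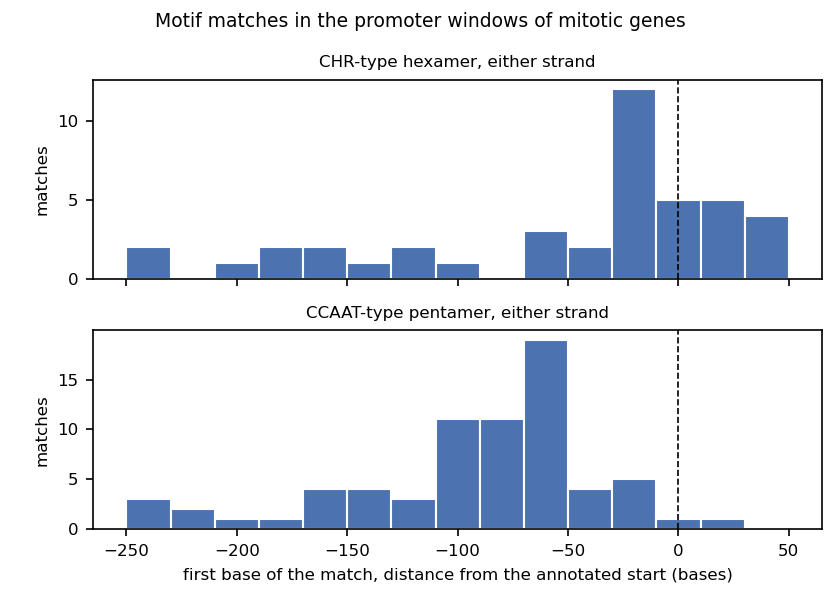
Positions of motif matches in the 46 RefSeq promoter windows of 36 mitotic genes: the horizontal axis is the distance in bases of the match's first base from the annotated start (dashed line), and the bars count matches of the hexamer TTTGAA (upper panel) and of CCAAT (lower panel) on either strand. The hexamer was in 65.2% and CCAAT in 73.9% of the windows.

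The arrays differed in ways that bear on these genes. Medians of the 8 arrays ran from 7.36 to 7.48, while the SD within an array was lowest at 4 h (1.74 in both) and highest at 24 h (1.90 and 1.95). Hybridisation spike-in signal formed a low class of 3 arrays, the 2 h control and the 12 h pair (11.19 to 11.35), and a high class of 5 (11.83 to 12.11). A difference between 12 and 4 h thus also compares the low with the high class, and the class effect can be estimated from the 2 h pair alone. The 4 and 24 h arrays are all of the high class. Signal of the 18S rRNA probe sets, a ribosomal RNA control, was 8.57, 11.52, 7.35 and 9.82 in the control arrays at 2, 4, 12 and 24 h, and 12.01, 11.62, 7.29 and 9.16 in the quercetin arrays. The difference between 3′ and 5′ probe sets ran from 0.88 to 1.40 for ACTB and from 0.41 to 0.61 for GAPDH. Hepatocyte markers were bright (9 of 9 above the filter, array means 14.08 to 14.39). Above the filter were also 5 of 8 fibroblast, 4 of 6 leukocyte and 2 of 6 endothelial markers, with array means of 7.50 to 7.77, 8.52 to 8.88 and 7.13 to 7.49. Of the leukocyte markers LYZ had a mean of 13.99 and PTPRC one of 7.52.

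Messages of most of the mitotic genes were higher at 12 h than at 4 h in both treatments. All 42 had a higher mean at 12 than at 4 h (53.5% of all tested genes did). By limma 18 of them (42.9%) rose, against 6.56% of all tested genes, and none fell, against 0.97%. The median difference was 0.49 on the log2 scale, against 0.03 over all tested genes, and the median standard error was 0.17. In 40 of the 42, both 12 h arrays lay above both 4 h arrays, which held for 34.6% of all tested genes. The exceptions were AURKB and UBE2C. Over the same step 18S rRNA signal was lower, at 11.52 and 11.62 in the 4 h arrays and 7.35 and 7.29 in the 12 h arrays, and its part in the result was not tested. In a bulk sample, fewer cells near mitosis and less message per cell cannot be told apart.

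**Figure D2:**
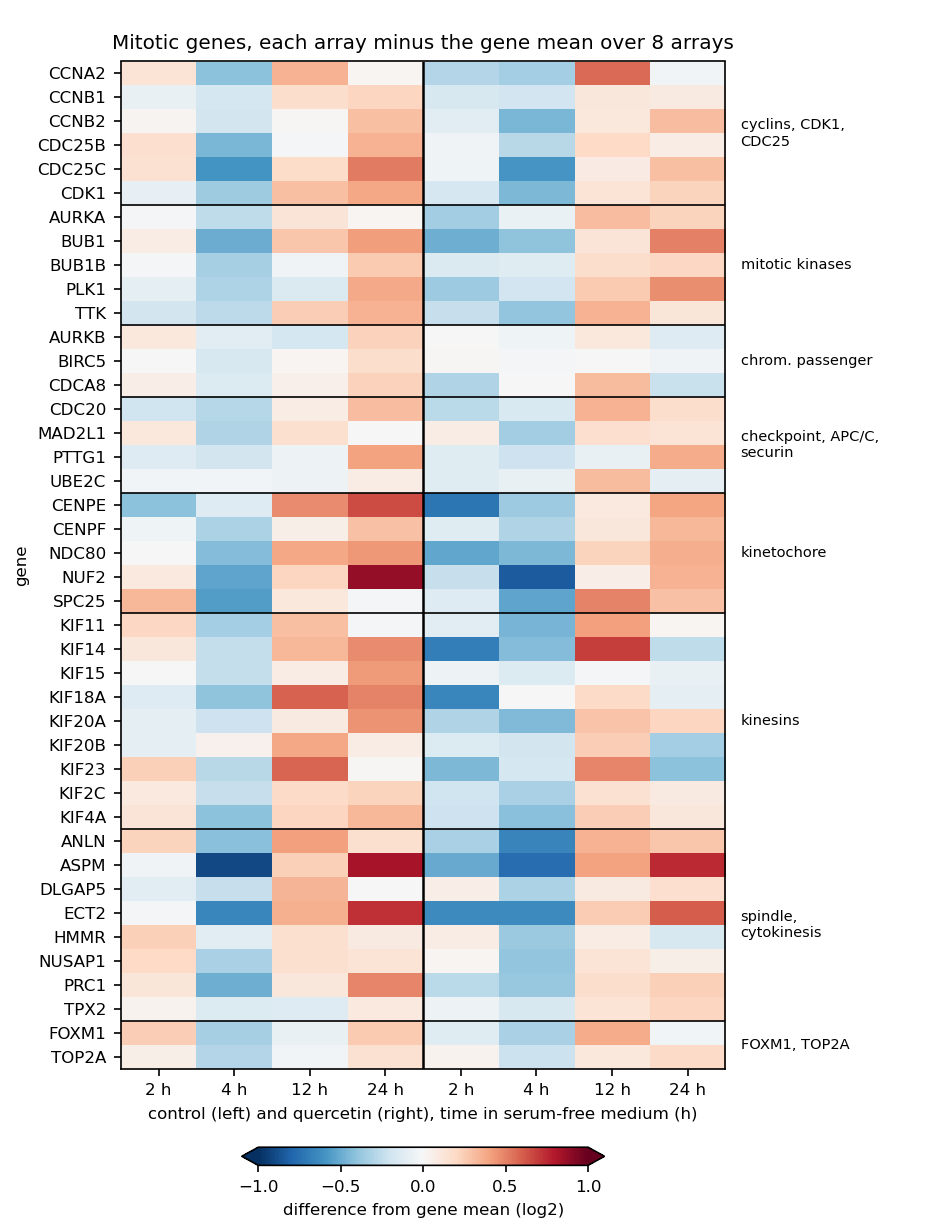
Signal of the 42 mitotic genes (rows, grouped by role) in the 8 arrays (columns, control left and quercetin right, by time in h), as the log2 difference from the gene's mean over the 8 arrays. The 4 h columns are mostly blue, and the lowest of the 8 arrays was a 4 h array for 31 of the 42 genes, against 33.6% of all tested genes.

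The same rise stood in each treatment taken alone. From 4 to 12 h, 40 of 42 members were higher in the control arrays (median 0.45) and 42 of 42 in the quercetin arrays (median 0.50). Of all tested genes, 49.6% and 59.6% were higher. Relative to each gene's own mean, the median of the members was 0.03, -0.30, 0.16 and 0.28 in the control arrays at 2, 4, 12 and 24 h, and -0.17, -0.33, 0.18 and 0.17 in the quercetin arrays. The lowest time mean fell at 4 h for 35 members (83.3%) and for 39.8% of all tested genes.

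**Figure D3:**
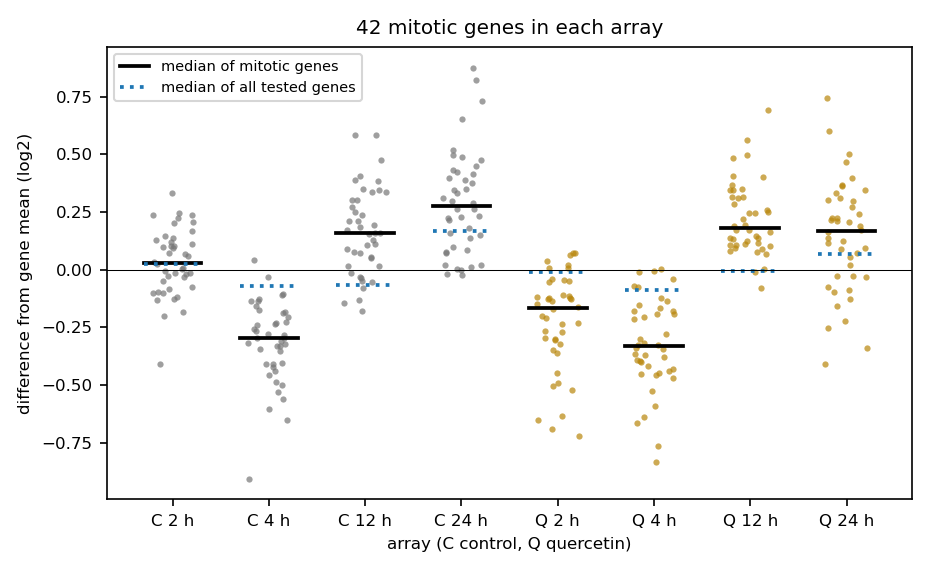
Each point is 1 of the 42 mitotic genes in 1 array (C control, Q quercetin), as the log2 difference from its mean over the 8 arrays. Solid lines are medians of the mitotic genes and dotted lines medians of all 13298 tested genes, and both 4 h arrays have the lowest member medians, -0.30 and -0.33.

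The 12 h rise kept its direction under other scalings but not its calls under every model. After cyclic loess, which removes differences in spread between arrays, 39 of 42 members were higher at 12 h, with a median of 0.33 and 11 called (3.86% of all tested genes called higher). After quantile normalization, 40 were higher, with a median of 0.35 and 15 called (5.19%). AURKB and BIRC5 turned below 0 under both, and PTTG1 also did under loess. With the spike-in class as a block the median was 0.29 and 37 were higher, but no member and no gene at all was called (0 of 13298, 418 of them with an unadjusted p under 0.05). With the mean of each gene's probe sets 7 members were called, and 230 of the 11218 genes tested in that way. Without the control array at 4 h no member was called, and fewer were called without the quercetin array at 4 h or that at 12 h. Fewer of all tested genes were called in each of these fits too.

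**Figure D4:**
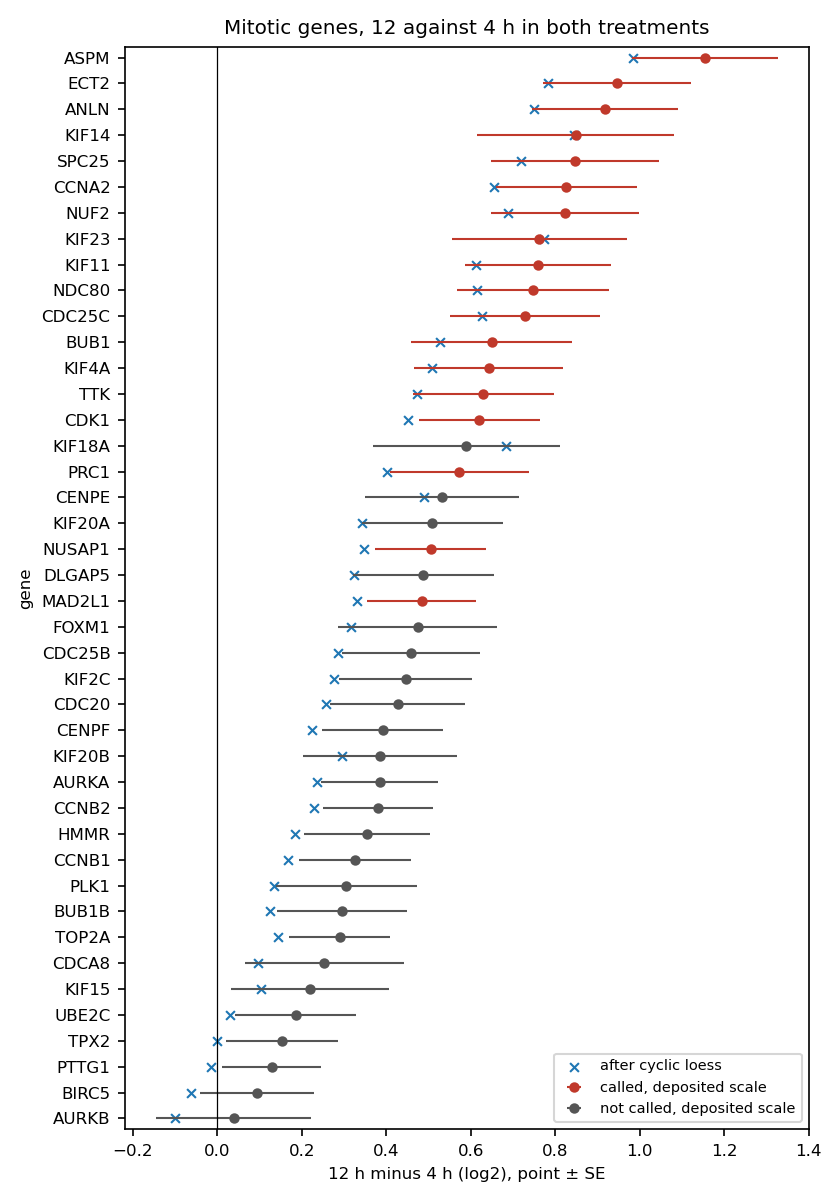
Log2 difference of each mitotic gene between 12 and 4 h over both treatments: circles are limma's estimates on the deposited scale with their standard errors as bars (red, called at an adjusted p under 0.05), and crosses are the estimates after cyclic loess. All 42 circles lie above 0 and 39 of the 42 crosses do, from AURKB at the bottom (0.04) to ASPM at the top (1.15).

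Of the cyclins, CDK1 and the CDC25 phosphatases, 3 of 6 rose from 4 to 12 h, with a median of 0.54, against 6.56% of all tested genes. CCNA2, cyclin A2, which acts from S phase into early mitosis, was at 10.91, 10.37, 11.12 and 10.80 in the control arrays at 2, 4, 12 and 24 h, and at 10.48, 10.44, 11.34 and 10.75 with quercetin. Its 12 h arrays were the highest of each treatment, and it rose by 0.83 ± 0.17 (SE; 1.77-fold, adjusted p = 0.00613 by limma) from 4 to 12 h. A dimmer probe set of CCNA2 (mean 10.08) was highest at 12 h with quercetin but not in control. CDC25C rose by 0.73 ± 0.18 (adjusted p = 0.0175) and CDK1 by 0.62 ± 0.14 (adjusted p = 0.0135). These 3 were also called after loess.

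The B-type cyclins, the partners of CDK1 in mitosis proper, had smaller differences on their brightest probe sets, and these did not pass. CCNB1 was at 11.61, 11.51, 11.86 and 11.90 in control and at 11.52, 11.49, 11.80 and 11.78 with quercetin. CCNB2 was at 12.10, 11.89, 12.09 and 12.38 in control and at 11.96, 11.62, 12.18 and 12.39 with quercetin. For both genes the 12 h arrays lay above the 4 h arrays without overlap, by 0.33 ± 0.13 for CCNB1 (adjusted p = 0.136) and 0.38 ± 0.13 for CCNB2 (adjusted p = 0.0787). The order depended on the probe set, since a dimmer one of CCNB1 (mean 9.53) differed by 0.56 and dimmer ones of CDK1 by 0.36 and 0.37. A second, dim probe set of CCNB2 differed by -0.25. CDC25B, which starts CDK1 activation, differed by 0.46 ± 0.16 (adjusted p = 0.0904).

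Among the mitotic kinases 2 of 5 rose from 4 to 12 h, against 6.56% of all tested genes. They were BUB1 (0.65 ± 0.19, adjusted p = 0.0408), a checkpoint kinase at kinetochores, and TTK (0.63 ± 0.17, adjusted p = 0.0249), also called MPS1, which starts the spindle checkpoint. AURKA, the kinase of spindle poles, was at 12.22, 11.98, 12.37 and 12.26 in control and at 11.89, 12.17, 12.55 and 12.46 with quercetin. BUB1B, which encodes BUBR1, was at 11.00, 10.69, 10.98 and 11.28 in control and at 10.87, 10.89, 11.19 and 11.23 with quercetin. Neither passed at 12 against 4 h (AURKA 0.38 ± 0.14, adjusted p = 0.0942, and BUB1B 0.30 ± 0.15, adjusted p = 0.248), although the 12 h arrays of both lay above their 4 h arrays. Other probe sets of BUB1 above the filter differed by 0.18 and -0.22, and those of AURKA by 0.50 (mean 11.89) and -0.15 (mean 7.75). With the mean of its probe sets BUB1 differed by 0.09 and was not called.

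The chromosomal passenger complex, which corrects faulty attachments and drives cytokinesis, moved least of the 8 role groups at 12 against 4 h. Its median was 0.09 and 0 of 3 were called, against 7.53% of all tested genes called in either direction. BIRC5, survivin, was at 11.80, 11.64, 11.82 and 11.98 in control and at 11.81, 11.79, 11.81 and 11.77 with quercetin. CDCA8, borealin, was at 10.26, 10.06, 10.24 and 10.42 in control and at 9.89, 10.19, 10.51 and 9.97 with quercetin. AURKB, the kinase of the complex, differed by 0.04 ± 0.18, and the group median was -0.06 after loess and also with the class block. The 4 probe sets of BIRC5 above the filter differed by 0.37, 0.09, 0.05 and -1.33, so its value depends on the probe set.

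In the group of checkpoint, APC/C and securin genes 1 of 4 rose at 12 h, against 6.56% of all tested genes. MAD2L1, which encodes the checkpoint protein MAD2, was at 12.02, 11.62, 12.08 and 11.92 in control and at 11.99, 11.57, 12.08 and 12.06 with quercetin. On this probe set only the 4 h arrays stood apart, and MAD2L1 rose by 0.48 ± 0.13 (1.40-fold, adjusted p = 0.0259) from 4 to 12 h. A dimmer probe set of MAD2L1 (mean 9.26) was highest at 24 h in both treatments. PTTG1, securin, was at 12.30, 12.25, 12.38 and 12.83 in control and at 12.31, 12.23, 12.35 and 12.80 with quercetin. It lay between 12.23 and 12.38 in the 6 arrays up to 12 h and then rose by 0.45 ± 0.12 (1.36-fold, adjusted p = 0.00858) from 12 to 24 h, the single member that rose over this step. CDC20, the APC/C activator of mitosis, and UBE2C, its ubiquitin-conjugating enzyme, differed by 0.43 ± 0.16 and 0.19 ± 0.14 at 12 against 4 h and did not pass (adjusted p = 0.108 and 0.459).

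Kinetochore genes had the highest median of the 8 role groups at 12 against 4 h, 0.75. Of these 5 genes 3 were called higher, against 6.56% of all tested genes. NUF2, a subunit of the NDC80 complex that holds microtubules, was at 9.89, 9.27, 10.01 and 10.67 in control and at 9.56, 8.96, 9.86 and 10.14 with quercetin. NUF2 rose by 0.82 ± 0.17 (1.77-fold, adjusted p = 0.00783). The other subunits of this complex that are members rose too, NDC80 by 0.75 ± 0.18 (adjusted p = 0.0167) and SPC25 by 0.85 ± 0.20 (adjusted p = 0.0145), and all 3 were called after loess and after quantile normalization.

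The remaining kinetochore genes differed in their course. CENPF was at 11.11, 10.84, 11.21 and 11.44 in control and at 11.03, 10.85, 11.26 and 11.49 with quercetin, lowest at 4 h in both. A dimmer probe set of CENPF above the filter (mean 8.72) was lowest at 4 h in control but at 24 h with quercetin. It differed by -0.41 at 24 against 2 h and by -0.10 at 24 against 4 h, where the brightest one differed by 0.40 and 0.62. CENPE, the kinesin that carries chromosomes to the spindle equator, was at 8.53, 8.81, 9.41 and 9.59 in control and at 8.22, 8.57, 9.03 and 9.34 with quercetin. CENPE was thus higher at each later time in both treatments and was the 1 member whose 4 h arrays both lay above both 2 h arrays, which held for 13.9% of all tested genes.

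Of the 9 kinesins, the motor proteins of the spindle, 4 rose from 4 to 12 h, against 6.56% of all tested genes. Their median was 0.59. KIF11, which pushes spindle poles apart, was at 10.22, 9.67, 10.31 and 9.99 in control and at 9.90, 9.54, 10.42 and 10.03 with quercetin. It rose by 0.76 ± 0.17 (1.69-fold, adjusted p = 0.0123), and its 24 h arrays lay below its 12 h arrays. KIF14 (0.85 ± 0.23, adjusted p = 0.0304), KIF23 (0.76 ± 0.21, adjusted p = 0.0281) and KIF4A (0.64 ± 0.18, adjusted p = 0.0292) rose as well. KIF14, KIF23 and KIF4A serve cytokinesis and the central spindle.

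The other kinesins with values by array did not pass at 12 against 4 h. KIF2C, which takes microtubules apart at centromeres, was at 10.67, 10.35, 10.77 and 10.80 in control and at 10.38, 10.25, 10.72 and 10.67 with quercetin. KIF20A, needed for cytokinesis, was at 10.36, 10.25, 10.55 and 10.91 in control and at 10.16, 10.02, 10.74 and 10.68 with quercetin. KIF20B was at 9.23, 9.37, 9.71 and 9.40 in control and at 9.19, 9.15, 9.57 and 8.98 with quercetin. Each was highest at 12 or 24 h in both treatments, and for KIF20B, whose 24 h arrays lay below its 12 h arrays, a second bright probe set had the opposite sign (-0.28 against 0.39) at 12 against 4 h. KIF18A, which limits microtubule length at kinetochores, differed by 0.59 ± 0.22 (adjusted p = 0.107) and KIF15 by 0.22 ± 0.19 (adjusted p = 0.504).

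In the spindle and cytokinesis group 5 of 8 rose from 4 to 12 h, against 6.56% of all tested genes. The 3 members with the largest differences of all 42 were here. ASPM, a spindle pole protein, was at 10.56, 9.69, 10.83 and 11.42 in control and at 10.09, 9.83, 11.00 and 11.34 with quercetin. ECT2, the exchange factor that starts the cleavage furrow, was at 10.34, 9.70, 10.71 and 11.09 in control and at 9.72, 9.72, 10.61 and 10.96 with quercetin. Both were higher at 24 than at 12 h in each treatment, and they rose from 4 to 12 h by 1.15 ± 0.17 for ASPM (2.23-fold, adjusted p = 0.000801) and 0.95 ± 0.18 for ECT2 (1.93-fold, adjusted p = 0.00371). ANLN, anillin of the contractile ring, rose by 0.92 ± 0.17 (1.89-fold, adjusted p = 0.00414), and PRC1, which bundles the central spindle, by 0.57 ± 0.17 (adjusted p = 0.0368).

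NUSAP1, a microtubule-binding spindle protein, was at 11.93, 11.40, 11.88 and 11.86 in control and at 11.75, 11.33, 11.86 and 11.78 with quercetin. On this probe set it rose by 0.51 ± 0.13 (adjusted p = 0.0240), from 4 h arrays that lay below the other 6. Another probe set of NUSAP1 above the filter (mean 9.60) was highest at 4 h in control, at 9.05, 9.78, 9.11 and 9.01. With quercetin that probe set was lowest at 4 h, at 9.79, 9.55, 10.82 and 9.68. HMMR, a spindle protein, was at 11.17, 10.83, 11.09 and 11.02 in control and at 11.01, 10.56, 11.01 and 10.78 with quercetin. TPX2, the activator of AURKA, was at 12.03, 11.86, 11.86 and 12.09 in control and at 11.94, 11.83, 12.13 and 12.21 with quercetin. HMMR and TPX2 did not pass (0.35 ± 0.15 and 0.15 ± 0.13, adjusted p = 0.150 and 0.512), and the control arrays of TPX2 at 4 and 12 h differed by 0.0043. DLGAP5, which stabilises spindle microtubules, differed by 0.49 ± 0.17 (adjusted p = 0.0779).

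FOXM1, the transcription factor that raises G2/M genes, was at 10.45, 9.88, 10.13 and 10.47 in control and at 10.09, 9.88, 10.58 and 10.18 with quercetin. TOP2A, the topoisomerase that untangles sister chromatids, was at 12.39, 12.03, 12.30 and 12.48 in control and at 12.37, 12.12, 12.43 and 12.52 with quercetin. On these probe sets both were lowest at 4 h in either treatment and neither passed at 12 h (FOXM1 0.47 ± 0.19, adjusted p = 0.130, and TOP2A 0.29 ± 0.12, adjusted p = 0.144). A second probe set of TOP2A, nearly as bright (mean 12.25), was lowest at 12 h in control, at 12.29, 12.18, 11.61 and 12.31. With quercetin it was lowest at 4 h, at 12.11, 12.01, 12.85 and 12.67.

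The low values at 4 h did not pass as a change from 2 h. No member was called at 4 against 2 h, where limma called 0.534% of all tested genes, while the unadjusted p was under 0.05 for 14 members and for 17.7% of all tested genes. The member median was -0.22 (all genes -0.09), and both 4 h arrays lay below both 2 h arrays for 28 of 42, against 34.4% of all tested genes. After cyclic loess that count was 12 of 42, against 20.9%. CDC25C had the smallest adjusted p (-0.65 ± 0.18, adjusted p = 0.0839). Without both 12 h arrays 6 members were called, but so were 845 of the 13298 tested genes, where the full fit called 71. Leaving out 1 array of the 12 h pair, or the quercetin array at 2 h, also raised the calls of members and of all tested genes. Comparisons of 2 arrays within 1 spike-in class gave differences of several sizes. The quercetin arrays at 4 and 2 h, both of the high class, had a member median of -0.11 (all genes -0.08), with 12 of 42 higher against 38.2% of all tested genes, and the control arrays at 12 and 2 h, both of the low class, had 0.10 (all genes -0.09), with 28 of 42 higher against 38.1% of all tested genes. The quercetin arrays at 24 and 2 h, both of the high class, had 0.35 (all genes 0.08), with 37 of 42 higher against 57.3% of all tested genes.

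By 24 h, 11 members (26.2%) had risen from their 2 h level and none had fallen, against 17.3% of all tested genes called higher and 3.98% called lower. The 11 were ASPM, BUB1, CDC20, CDK1, CENPE, ECT2, KIF20A, NDC80, NUF2, PLK1 and PTTG1. CENPE rose by 1.09 ± 0.18 (2.13-fold, adjusted p = 0.000255), ASPM by 1.05 ± 0.17 (2.07-fold, adjusted p = 0.000215) and ECT2 by 0.99 ± 0.18 (1.99-fold, adjusted p = 0.000415). PLK1, the kinase that drives mitotic entry and exit, rose by 0.65 ± 0.17 (1.57-fold, adjusted p = 0.00741). For all 11 both 24 h arrays lay above both 2 h arrays, as for 22 of the 42 members and 37.6% of all tested genes.

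This comparison depended on the scaling. The member median of 0.27 (all genes 0.09) was 0.05 after cyclic loess and 0.01 after quantile normalization, with 5 and 4 called higher (10.9% and 8.84% of all tested genes) and HMMR called lower under both (7.2% and 6.67%). ASPM, CENPE and ECT2 were called under both, at 0.81, 0.99 and 0.76 after loess. ASPM and CENPE were called under all of the 21 and 22 alternatives run for them, leaving out single arrays included. With the mean of its probe sets ASPM was 0.55 and ECT2 was 0.27 and not called. Most of the 11 calls were lost without the quercetin array at 2 h, and also without either of the 24 h arrays. Fewer of all tested genes were then called too, and the share of members called lay near the share of all tested genes.

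The comparison of 24 with 4 h, added after the values were seen because these arrays share 1 spike-in class, called 26 of 42 members higher (61.9%) and none lower, against 32.8% and 9.45% of all tested genes. The median was 0.46 (all genes 0.19), and 41 of 42 were higher (63.6% of all tested genes), KIF20B being the exception (-0.07). ASPM rose by 1.62 ± 0.17 (3.07-fold, adjusted p = 8.11e-07), ECT2 by 1.31 ± 0.18 (2.48-fold, adjusted p = 8.8e-06) and NUF2 by 1.29 ± 0.17 (2.45-fold, adjusted p = 9.73e-06). CDC25C, which removes the inhibitory phosphates of CDK1, rose by 1.01 ± 0.18 (2.01-fold, adjusted p = 0.000147).

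The scaling decided most of these calls. After loess the median was 0.08, with 7 members called higher and 2 lower (17.2% and 15.2% of all tested genes), and after quantile normalization it was 0.06, also with 7 and 2 (15.6% each). The same 7 were called higher under both, ASPM, BUB1, CDC25C, CENPE, ECT2, NDC80 and NUF2, and the same 2 lower, BIRC5 and UBE2C. With the class block 29 members were called higher and none lower, against 34.3% and 10.2% of all tested genes. Fewer members were called without the control array at 4 h, the quercetin array at 4 h or the control array at 24 h. Fewer of all tested genes were then called too.

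From 12 to 24 h PTTG1 rose and KIF23 fell by 0.73 ± 0.21 (adjusted p = 0.0139), and the other 40 members did not pass, against 23.7% of all tested genes called in either direction, 19.0% higher and 4.78% lower. The member median was 0.05 (all genes 0.16), with 12 members above and 7 below without overlap (45.0% and 18.1% of all tested genes). The 7 were ANLN, CCNA2, KIF11, KIF20B, KIF23, MAD2L1 and NUSAP1. Among their other probe sets above the filter, those of ANLN, KIF20B and KIF23 were also lower without overlap, and those of CCNA2 and NUSAP1 overlapped. Of MAD2L1, 1 was higher without overlap, at 9.43 and 9.32 at 12 h and 9.81 and 9.51 at 24 h, and 1 was lower. After loess the median was -0.21, and 9 members were called lower and none higher (8.69% and 8.55% of all tested genes). They were AURKA, CCNA2, HMMR, KIF11, KIF20B, KIF23, MAD2L1, NUSAP1 and UBE2C. Quantile normalization gave -0.26 and called these 9 with ANLN and CCNB1 lower (8.23% of all tested genes), so the direction of the step after 12 h turned with the scaling for 15 members. With the class block the median was 0.25, and without either 24 h array no member was called.

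Over all 4 times the F-test called 29 of 42 members (69.0%), against 38.1% of all tested genes. The 13 that did not pass were AURKB, BIRC5, BUB1B, CCNB1, CDCA8, DLGAP5, FOXM1, HMMR, KIF15, KIF20B, KIF2C, TPX2 and UBE2C. Without the 4 h pair 11 members were called, and 3307 of the 13298 tested genes, a share near that of the members. Without the 24 h pair 11 members were also called, but 725 of the tested genes. Leaving out the control array at 4 h, the quercetin array at 4 h or the control array at 24 h lowered the count of 29.

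Promoters with and without the hexamer were set beside these differences as a description. The 27 members with TTTGAA in a window had a median of 0.57 at 12 against 4 h, with 15 called, and the 9 without it one of 0.46, with 2 called, BUB1 and CCNA2. The 6 members not in the RefSeq table had a median of 0.29, with TTK called. At 24 against 4 h the order turned, with 0.46 for the 27 and 0.58 for the 9. CENPE, which holds neither motif in the printed window, rose most from 2 to 24 h, and CDCA8 and HMMR, which hold both, did not pass at any step on the deposited scale.

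Quercetin gave no called difference in any member over the 4 times. Limma called 0 of 13298 genes (0.0%). The unadjusted p was under 0.05 for 2 members, CENPE and NUF2, and for 785 (5.9%) of the tested genes. The member median was -0.08 (all genes -0.03), with 11 of 42 above 0, where 42.8% of all tested genes were. The adjusted p of the members lay between 0.844 and 0.998. The median standard error of 0.12 bounds what these arrays can show. In simulated data with 200 of 13298 genes shifted alike at every time and no difference shared by a whole array, 67.16% of shifts of 0.5 were called.

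Single times, which compare 1 array with 1 array and have no test, had their widest median at 2 h on the deposited scale. There 39 of 42 members were lower with quercetin (58.0% of all tested genes), with a median of -0.20 (all genes -0.06), and 7 were lower by at least 0.5 (8.89% of all tested genes). These 7 were ANLN, BUB1, ECT2, KIF14, KIF18A, KIF23 and NDC80. KIF14 was at 8.78 in control and 7.98 with quercetin, the widest difference of a member, and BIRC5, DLGAP5 and PTTG1 were the 3 members not lower. The arrays of the 2 h pair are of different spike-in class (11.24 and 12.11) and differed in 18S rRNA signal (8.57 in control and 12.01 with quercetin), whose part was not tested. After loess 24 members were lower at 2 h with a median of -0.05, and the median at 12 h was also -0.05. After quantile normalization 24 were lower at 2 h with a median of -0.03, and at 12 h the median was -0.08, the wider of the pair. At 4, 12 and 24 h the median was -0.0015, 0.04 and -0.13 (all genes -0.02, 0.05 and -0.10), with 21, 19 and 30 members lower (54.2%, 40.7% and 66.2% of all tested genes).

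**Figure D5:**
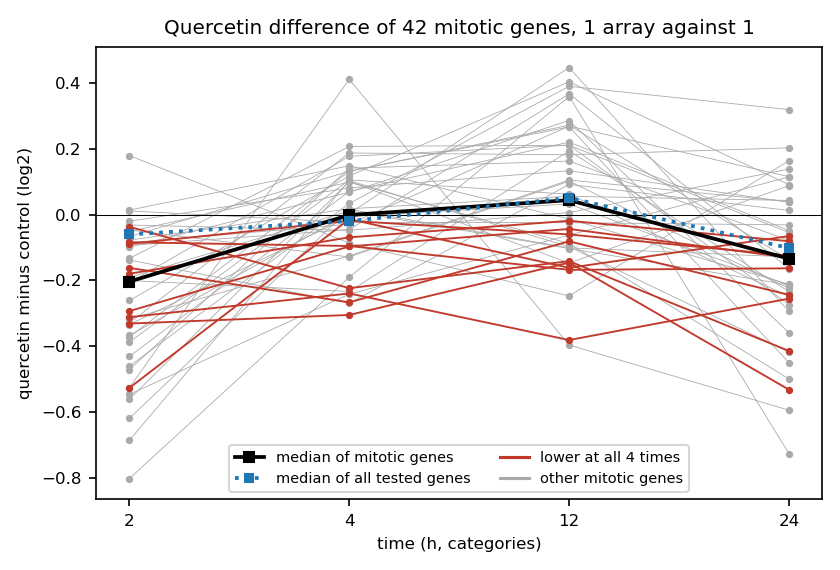
Quercetin minus control (log2, 1 array against 1) for each of the 42 mitotic genes at 2, 4, 12 and 24 h, drawn as evenly spaced categories. Red lines are the 9 genes lower at all 4 times, the solid black line is the member median, -0.20 at 2 h, and the dotted line is the median of all 13298 tested genes, -0.06 at 2 h.

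The sign was negative at all 4 times for 9 members (21.4%) and for 9.28% of all tested genes, and positive at all 4 for no member and 4.54% of all tested genes. The 9 were CCNB1, CDK1, CENPE, HMMR, KIF20B, KIF2C, NDC80, NUF2 and NUSAP1. KIF20B differed by -0.04, -0.22, -0.14 and -0.41 at 2, 4, 12 and 24 h, a mean of -0.20 ± 0.13 (adjusted p = 0.867). CDK1 differed by -0.08, -0.10, -0.17 and -0.16, a mean of -0.13 ± 0.10 (adjusted p = 0.869). A second probe set of KIF20B above the filter was instead higher with quercetin at all 4 times. It was at 9.03, 9.39, 9.22 and 8.19 in control and at 9.14, 9.68, 9.29 and 8.62 with quercetin. Other probe sets of CCNB1, CDK1, HMMR, KIF2C and NUSAP1 above the filter were each higher with quercetin at 1 or more of the times. CENPE, NDC80 and NUF2 have no other probe set above the filter. After loess 2 members and after quantile normalization 3 were lower at all 4 times. Against the spread over times, the quercetin difference at 12 and 24 h did not pass as different from that at 2 and 4 h for any member (0.368% of all tested genes called), and SPC25 was the 1 member with an unadjusted p under 0.05 (4.32% of all tested genes).

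Other cell cycle genes, from lists chosen by function, were read beside the members. Of 63 further mitotic genes tested, 16 rose and 0 fell from 4 to 12 h (median 0.30), against 6.56% and 0.97% of all tested genes. From 12 to 24 h 1 rose and 6 fell (median -0.06), against 19.0% and 4.78%. DEPDC1 (0.98 ± 0.19, adjusted p = 0.00100), SGO2 (0.83 ± 0.18, adjusted p = 0.00228) and UBE2S (0.60 ± 0.20, adjusted p = 0.0339) had the largest called differences at 24 against 2 h, where 4 of the 63 rose and 2 fell, against 17.3% and 3.98% of all tested genes. The other riser was CKAP2L (0.59), and the fallers were ZWINT (-0.45) and KPNA2 (-0.36), these 3 being named after their values were seen. The median of 0.13 was -0.08 after loess and -0.10 after quantile normalization. MKI67, which encodes the proliferation antigen Ki-67, did not pass (0.25 ± 0.18, adjusted p = 0.360). Of 14 APC/C genes, 1 rose from 4 to 12 h, a share near the 6.56% of all tested genes. From 2 to 24 h 2 rose, CDC23 and ANAPC10, a share below the 17.3% of all tested genes. FZR1, the G1 activator of APC/C, differed by -0.10 ± 0.19.

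Genes of S phase included many that fell after 12 h. Of 42 G1/S and replication genes tested, 6 rose and 0 fell from 4 to 12 h (median 0.22), against 6.56% and 0.97% of all tested genes. From 12 to 24 h 0 rose and 15 fell (median -0.36), against 19.0% and 4.78% of all tested genes. At 24 against 2 h 13 fell (3.98% of all tested genes), led by GINS4 (-1.04 ± 0.17, adjusted p = 0.000240), CDC6 (-0.91 ± 0.21, adjusted p = 0.00367) and UHRF1 (-0.77 ± 0.16, adjusted p = 0.00183), which serve replication origins, forks and DNA methylation upkeep. The median of this list from 12 to 24 h was -0.60 after loess and -0.14 with the class block, where that of the members was -0.21 and 0.25. The difference between the lists was not tested. E2F1, a driver of S phase genes, differed by -0.23 ± 0.19 at 24 against 2 h and did not pass.

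Of 14 genes of DREAM and its activating counterpart MYB-MuvB, 5 rose and 2 fell from 2 to 24 h, against 17.3% and 3.98% of all tested genes. RBL1, the pocket protein p107, fell by 1.32 ± 0.21 (adjusted p = 0.000201), while RBL2, the pocket protein p130 of resting cells, rose by 0.47 ± 0.16 (adjusted p = 0.0461). LIN37, a MuvB subunit, rose by 1.19 ± 0.22 (adjusted p = 0.000648) and E2F5, a repressor E2F, by 1.01 ± 0.20 (adjusted p = 0.00137). MYBL2, the MYB partner of MuvB, differed by -0.37 ± 0.18 (adjusted p = 0.146).

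Of 12 inhibitors of CDK1 entry tested, 6 rose and 0 fell from 2 to 24 h, against 17.3% and 3.98% of all tested genes. CCNG2, an inhibitory cyclin of resting cells, rose by 3.49 ± 0.20 (adjusted p = 1.02e-09), BTG1, an antiproliferative gene, by 1.66 ± 0.18 (adjusted p = 2.15e-06) and CDKN1B, which encodes p27, by 0.94 ± 0.14 (adjusted p = 0.000104). CDKN1A, which encodes p21, rose by 0.50 ± 0.17 (adjusted p = 0.0358). The kinases that place the inhibitory phosphates on CDK1 did not pass at 24 against 2 h, WEE1 at 0.23 ± 0.15 (adjusted p = 0.311) and PKMYT1 at -0.41 ± 0.16 (adjusted p = 0.0793). The median of the list at 24 against 12 h was 0.54, and 0.29 after loess.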

How the data were processed

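RNA from 8 HepG2 cultures, 1 per treatment and time, was labelled and hybridised to Affymetrix arrays. The authors deposited 1 table of 54675 probe sets in log2 units, summarised by RMA according to the submitters' processing notes. The RMA software is not given in the sources used here. No scanner intensities were used. The number of arrays limits the precision.

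Probe sets were named from GEO's platform annotation, with symbols updated through Entrez identifiers. Of the probe sets, 41091 had 1 gene symbol and 1801 had several and were not named. Each of 19775 genes took its probe set with the highest mean, and the 13298 with a mean over the probe sets' median entered the limma fit (version 3.58.1, R 4.3.3, eBayes with trend, time as a block and treatment added, 3 residual degrees of freedom, Benjamini-Hochberg adjustment over all tested genes, threshold 0.05). A second model tested the quercetin difference at 12 and 24 h against that at 2 and 4 h (2 residual degrees of freedom). The text names as risen or fallen only genes past the threshold, which it calls called.

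The members, their role groups and the other lists were chosen with earlier results of these data known. Any member could be named. Values by array are given for the brightest 2 of each role group (3 in groups of 8 or more), the 3 called members that rose most and fell most between 2 and 24 h, and the 3 largest quercetin differences in each direction with 1 sign at all 4 times. Of other genes, 10 fixed regulators and up to 3 called genes of each list with the largest difference at 24 against 2 h were named. CDKN1C, 1 of the 10, was too dim to be tested.

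Simulated data, in which 200 of the 13298 genes were shifted, served as a test. Their noise was independent between genes, with no spike-in class or other difference shared by a whole array. The rates therefore do not cover false calls from such differences. At 24 against 2 h the fit called 29.85% of shifts of 0.5, 97.01% of shifts of 1 and 100% of shifts of 1.5, and 5.03% of its calls were false. For the late minus early difference it called 7.46%, 59.7% and 98.48%, and 6.78% were false. Alternatives covered the filter, the choice of probe set, the scaling, the moderation, array weights, the spike-in class and leaving out each array and time pair.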

Additional observations from a re-analysis of the deposited data

How the results depend on the processing

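Quercetin gave 0 called members under each alternative run, and the late minus early difference gave 2 called when every probe set was tested on its own (135 of all 22354 probe sets tested). The member median for quercetin stayed negative throughout. At 24 against 2 h, 7 members were called with gene-specific probe sets (2036 of 9884 genes), and 28 members have one above the filter. After cyclic loess 6 were called (2409 of 13298 genes) and after quantile normalization 5 (2063 of 13303). When arrays or time pairs were left out, the counts of members and of all tested genes both moved. The median at 24 against 2 h was 0.0540 after loess and 0.0135 after quantile normalization, and BUB1 turned to -0.0037 with the mean of its probe sets.

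At 12 against 4 h, 7 were called when probe sets were averaged, 11 with gene-specific probe sets, 11 after loess, 0 with the class block (median 0.29) and 0 to 21 with arrays left out. At 24 against 4 h, added after the values were seen, the counts were 17, 15, 9 after loess and 9 after quantile normalization, and 14 to 29 with arrays left out, with medians of 0.0844 after loess and 0.0582 after quantile normalization. At 24 against 12 h, 6 were called at a threshold of 0.1 (4189 of 13298 genes) and 4 with the stricter filter (2601 of 8095). With every probe set 6 were called (4178 of 22354 probe sets), after loess 9 (2292 of 13298 genes) and after quantile normalization 11 (1994 of 13303). Of the 13298 genes 1 member was called without the trend (2628 genes), 4 with robust moderation (3173), 4 with array weights (3204) and 1 with the class block (922). At 4 against 2 h, 3 were called at a threshold of 0.1 (424 of 13298 genes). Over all times, 18 were called when probe sets were averaged, 17 with gene-specific ones and 11 to 31 with arrays left out. Gene-specific probe sets test fewer genes and can change a gene's probe set, and leaving out arrays uses fewer samples. The cause of the changed counts was not tested for any setting. Where an array is left out, the lone array of that time is assumed to vary like the others.

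The quercetin comparison pairs control and quercetin arrays by time. Without the time block 0 members were called and the median was -0.08. No paired analysis by replicate number was made, since each group holds 1 array. With 1 array a group, the spread between cultures is unknown, and spike-in class and the 12 against 4 h step share both 12 h and both 4 h arrays.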

Other observations

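The 79 probe sets of the members, tested or not, differed by brightness. Of the 65 above the filter, 59 were higher at 12 than at 4 h, and of the 14 below it 2 were. Of 17 members with several probe sets above the filter, 6 (AURKA, AURKB, BIRC5, BUB1, CCNB2 and KIF20B) had probe sets of both signs at that step. The reason for the opposite signs was not tested.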
